A study of Danio rerio with 16 samples.

Results

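The RNA 3′ ends of the plus strand of the zebrafish mitochondrial chromosome (chrM) were described in 3 libraries made by 3P-Seq, a method that sequences the tips of polyadenylated RNA. The members were all plus-strand chrM intervals of the deposited files, whose 3′ ends were pooled and clustered: the position with the most tags absorbed those within 10 nt. A cluster was kept from 4 pooled tags upward. This gave 818 of the 90940 clusters found over all chromosomes and strands. There was 1 library from whole wild-type embryos at 24 hours post fertilization (hpf), 1 from whole wild-type embryos at 72 hpf and 1 from whole wild-type adults of mixed gender. The sources used here name neither the fish strain nor the number of animals pooled. The labels' treatment text speaks of formaldehyde and is shared with the chromatin samples of the series; whether the RNA was treated so is not given. The other 13 samples of the series were not analysed here.

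As background, vertebrate mitochondrial DNA is a circle that is transcribed into long RNAs covering many genes. Transfer RNAs (tRNAs) lie between most of the other genes, and their excision frees the ribosomal RNAs (rRNAs) and messenger RNAs (mRNAs), which then receive a poly(A) tail. For several mRNAs the tail also completes the stop codon. The encoded proteins are subunits of the respiratory chain (complexes I, III and IV) and of ATP synthase (complex V).

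The mitochondrial plus strand held 218279 tags in the 24 hpf library, 400318 at 72 hpf and 182818 in adults, of library totals of 7423152, 9813481 and 7470435. That is 2.94% (95% confidence interval, CI, 2.93% to 2.95%), 4.08% (4.07% to 4.09%) and 2.45% (2.44% to 2.46%) of all tags. All intervals here are exact and cover counting error only. Each stage has 1 library, which allows neither a replicate check nor a p-value, and every difference is one between these libraries. Unless stated otherwise, 3 values in a row belong to the 24 hpf, 72 hpf and adult libraries in that order. The strand held 97.9%, 98.0% and 95.2% of the chrM tags. In counts per 1000000 tags of the library (CPM) the total at 72 hpf was 1.39 times that at 24 hpf (CI 1.38 to 1.39). The ratio of the adult to 72 hpf was 0.600 (0.597 to 0.603), and that of the adult to 24 hpf was 0.832 (0.827 to 0.837). The direction of the last one depended on the scaling: with median-ratio scaling it was 1.17, and with the same scaling over clusters with at least 4 tags in each library 1.04. Adult over 72 hpf was then 0.993 and 0.870. With each distinct interval counted once in place of its tags, totals were scaled to the library's distinct intervals, 235580, 319885 and 517701. The total at 72 hpf was then below that at 24 hpf, at a ratio of 0.879, and adult over 72 hpf was 1.00. In whole animals, fewer cells rich in mitochondria and less RNA per cell cannot be told apart. Of the plus-strand intervals 616 of 3635 held a single tag at 24 hpf, 792 of 4338 at 72 hpf and 4203 of 7041 in adults.

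Genes are named here from RefSeq's gene table for the assembly GRCz12tu, while the files use Zv9 (danRer7). All 37 mitochondrial genes of that table were used: 22 tRNAs, 2 rRNAs and 13 protein genes, of which 12 lie on the plus strand in vertebrates. The table was used for names only, placed by position. It gives no strand, and the mitochondrial sequences of the assemblies were not compared. Of the 15 leading clusters, those with at least 1% of the plus-strand tags in a library, 14 lay within 10 nt of a gene boundary of that table, as did 5.28% of all positions. The boundaries took 91.6%, 94.4% and 90.9% of the tags of the 3 libraries. Positions are danRer7 coordinates, 1-based, on the plus strand of chrM.

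The 15 leading clusters held 90.4% of the plus-strand tags at 24 hpf (CI 90.3% to 90.5%), 93.8% at 72 hpf (93.7% to 93.9%) and 91.9% in adults (91.8% to 92.1%). The 5 with the highest mean share lay at 10518, 950, 8048, 10938 and 12679 and together held 64.2%, 70.7% and 66.1%. The order of the ends differed between the libraries. At 24 hpf the end at 950 in the control region came first, followed by the COX3, 16S rRNA and ND4 ends. At 72 hpf the COX3 end led, followed by the ND3 and ND4 ends. In the adult the COX3 end led, followed by the end past COX1 and the ND3 end. Neighbours in this order whose intervals overlapped were the CYTB and ATP6 ends at 24 hpf, and likewise the ends at 6037, 6420 and 4780. At 72 hpf they were the 16S rRNA and ATP6 ends and the ends at 8119 and 1713, and in adults those at 8119, 9733 and 6420. A tag marks an end, so no level was divided by gene length, but how well each end is captured may differ between ends.

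**Figure D1:**
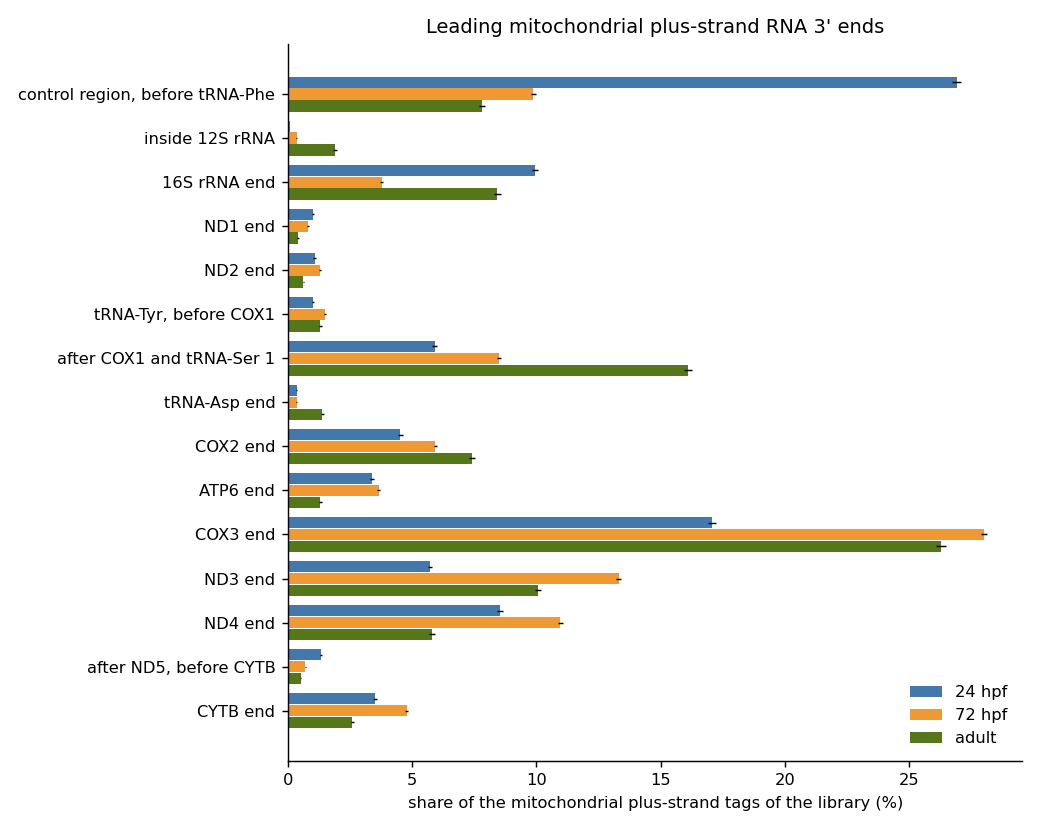
Share of the mitochondrial plus-strand tags of a library (x axis, percent) at each of the 15 leading ends, in the order of the chromosome, for 24 hpf (blue), 72 hpf (orange) and the adult (green). Bars are single libraries and lines are exact 95% intervals of counting error; the control region end is longest at 24 hpf (26.9%) and the COX3 end at 72 hpf (28.0%).

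The leading end of the control region lay at 950, just before tRNA-Phe, and was highest at 24 hpf. The control region holds the promoters and the origin of heavy-strand replication and encodes no protein. This end held 58773 tags in the 24 hpf library, 39536 at 72 hpf and 14271 in adults, or 7918, 4029 and 1910 CPM. It stood at 26.9%, 9.88% and 7.81% of the plus-strand tags. Its ratio was 0.509 for 72 hpf over 24 hpf (CI 0.502 to 0.515) and 0.241 for the adult over 24 hpf (0.237 to 0.246). Set against the COX3 end of the same library, which needs no scaling, it was 1.58 times as abundant at 24 hpf (1.56 to 1.60). That quotient was 0.352 (0.348 to 0.357) at 72 hpf and 0.297 (0.291 to 0.302) in adults. Against the CYTB end at 16448 the quotient was 7.68 (7.50 to 7.87), 2.06 (2.03 to 2.10) and 3.01 (2.91 to 3.11). Both quotients were highest at 24 hpf, but their direction from 72 hpf to the adult depended on the reference end.

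The leading end of the rRNA region, at 3731, lay at the border of mt-rnr2, the gene of the 16S rRNA of the large ribosomal subunit, and a tRNA-Leu gene. It held 21720, 15081 and 15416 tags (2926, 1537 and 2064 CPM) at 24 hpf, 72 hpf and in adults. Its share was thus lowest at 72 hpf, at 3.77%, against 9.95% at 24 hpf and 8.43% in adults. At the end of mt-rnr1, the gene of the 12S rRNA of the small subunit, the cluster at 1971 held only 47, 89 and 121 tags. The nearest larger cluster downstream, at 2004 inside tRNA-Val, held 1253, 1401 and 658. The quotient of the 3731 and 2004 ends was 17.3 (CI 16.4 to 18.4), 10.8 (10.2 to 11.4) and 23.4 (21.7 to 25.4).

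Inside mt-rnr1, the cluster at 1713 was the only leading end away from a gene boundary. It went from 169 tags at 24 hpf to 1386 at 72 hpf and 3464 in adults, or 22.8, 141 and 464 CPM. The adult stood 20.4-fold above 24 hpf (CI 17.4 to 23.9) and 3.28-fold above 72 hpf (3.08 to 3.50). These tags fell in 18, 45 and 78 distinct intervals, and the largest interval held 65, 247 and 622 of them. A second cluster in the gene, at 1835, held 6, 106 and 119 tags, 19.7-fold higher in adults than at 24 hpf (8.79 to 54.8), but its 6 tags at 24 hpf came from 2 intervals.

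A pair of leading ends lay at tRNA genes and took 1.37%, 1.83% and 2.69% of the plus-strand tags together. The one at 6420 lay in tRNA-Tyr shortly before COX1, at the far end of a run of tRNA genes most of which are encoded on the minus strand in vertebrates. It held 2236, 5923 and 2375 tags (301, 604 and 318 CPM), with a ratio of adult to 24 hpf of 1.06 (CI 0.996 to 1.12) that did not exclude equality. Under the 3 other scalings that ratio was 1.27, 1.48 and 1.32, each with an interval above 1. The end at 8119, just past tRNA-Asp and before COX2, held 763, 1401 and 2537 tags, 3.30-fold higher in adults than at 24 hpf (3.05 to 3.59). Below the 1% share, the end at 12822 between tRNA-Ser 2 and tRNA-Leu 2 held 1414, 2128 and 332 tags, and the end at 4923 between tRNA-Gln and tRNA-Met held 692, 775 and 184. Both stood lowest in adults.

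Complex IV, cytochrome c oxidase, has its 3 mitochondrial subunits COX1, COX2 and COX3 encoded on this strand. Their ends took 27.5% of the plus-strand tags at 24 hpf (CI 27.3% to 27.7%), 42.4% at 72 hpf (42.3% to 42.6%) and 49.8% in adults (49.6% to 50.1%). In CPM they summed to 8093, 17316 and 12193. From 72 hpf to the adult this sum fell in CPM (ratio 0.704, 0.698 to 0.710) while the share rose. The direction thus depended on the scaling, as the sum was higher in adults when scaled to the plus-strand chrM tags. From 24 hpf to 72 hpf the CPM sum rose 2.14-fold, near the 2.13-fold rise of the complex I ends. The share of the control region end dropped from 26.9% to 9.88% between those 2 libraries. How much of the rise in the complex IV share follows from that drop was not tested. The COX1 stretch closed at 8048, past the minus-strand tRNA-Ser 1 gene; mammalian COX1 mRNA is known to keep such an antisense tRNA sequence at its 3′ end. That end held 12916, 33986 and 29455 tags, or 1740, 3463 and 3943 CPM. It was 2.27-fold higher in adults than at 24 hpf (2.22 to 2.31) and 1.99-fold higher at 72 hpf than at 24 hpf (1.95 to 2.03). The COX2 end, at 8820, held 9879, 23779 and 13549 tags (1331, 2423 and 1814 CPM). Its ratio of adult to 72 hpf, 0.748 (0.733 to 0.765), passed 1 when scaled to the plus-strand chrM tags (1.25) or by median ratio (1.24). The COX3 end, at 10518, held 37283, 112162 and 48080 tags, and its share was 17.1%, 28.0% and 26.3%. Of the complex IV ends only that of COX1 was higher in adults than at 72 hpf in CPM, by 1.14-fold (1.12 to 1.16).

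Complex I, NADH dehydrogenase, took 17.7% of the plus-strand tags in the 24 hpf library, 27.1% at 72 hpf and 17.4% in adults through 5 ends. In CPM these ends summed to 5200, 11051 and 4259. Here the ND3 end at 10938 stood apart from the rest. It held 12485, 53290 and 18401 tags, and it was the only complex I end above its 24 hpf level in adults, by 1.46-fold (CI 1.43 to 1.50). The ND4 end at 12679 held 18655, 43910 and 10613 tags (2513, 4474 and 1421 CPM). The quotient of the ND4 and ND3 ends was 1.49 at 24 hpf (1.46 to 1.53), 0.824 at 72 hpf (0.814 to 0.834) and 0.577 in adults (0.563 to 0.591), so their order reversed after 24 hpf. The ND1 end at 4780 held 2227, 3231 and 725 tags (300.0, 329 and 97.0 CPM), and the ND2 end at 6037 held 2337, 5196 and 1143 (315, 529 and 153 CPM). The ratio of 72 hpf to 24 hpf for ND1, 1.10 (1.04 to 1.16), dropped below 1 under each of 3 other scalings (0.791 to 0.947). The ND5 stretch closed at 15306, between tRNA-Glu and CYTB and past the minus-strand gene ND6. That end held 2893, 2826 and 937 tags (390, 288 and 125 CPM), and among the mRNA ends it alone was lower at 72 hpf than at 24 hpf in CPM, at a ratio of 0.739 (0.701 to 0.778); under the other scalings the ND1 end was lower too.

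The single end of complex III, that of CYTB (cytochrome b) at 16448, held 7652, 19151 and 4743 tags, or 1031, 1952 and 635 CPM. The adult over 72 hpf ratio was 0.325 (CI 0.315 to 0.336). For complex V, the ATP6 end at 9733 held 7375, 14630 and 2381 tags (994, 1491 and 319 CPM). It was 4.68-fold lower in adults than at 72 hpf, a ratio of 0.214 (0.205 to 0.223). ATP6 lies directly before COX3 on the chromosome. The quotient of the COX3 and ATP6 ends was nevertheless 5.06 at 24 hpf (4.93 to 5.18), 7.67 at 72 hpf (7.54 to 7.80) and 20.2 in adults (19.4 to 21.0). In vertebrates ATP8 and ATP6 share an mRNA, as do ND4L and ND4. In these libraries the largest cluster between the COX2 and ATP6 ends held 239 tags over the 3 libraries, against 24386 at the ATP6 end. Between the ND3 and ND4 ends it held 535, against 73178 at the ND4 end.

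Of these 15 ends, 9 had their highest CPM at 72 hpf, 3 at 24 hpf and 3 in adults. These counts depended on the scaling. The ND1 and COX2 ends are among the 9. Under each of the 3 other scalings the ND1 end was highest at 24 hpf and the COX2 end in adults. All 15 ends were picked by their share in any library. Those at 1713 and 8119 reached 1% only in adults, and those at 4780 and 15306 only at 24 hpf. The counts of peaks and calls therefore partly follow from that rule. A cluster was called when its CPM ratio was at least 4-fold, the 95% interval excluded 2-fold and the pair held at least 20 tags. At 72 hpf against 24 hpf, 1 leading end was called higher (1713) and 0 lower, where 20.1% of all tested clusters of the genome were called higher and 7.99% lower. In the adult against 72 hpf, 0 were called higher and 1 lower (ATP6), beside 19.1% and 27.9% of all clusters. In the adult against 24 hpf, 1 was called higher (1713) and 1 lower (950), beside 23.5% and 20.2%. On the CPM scale, calls among the leading ends were thus below the genome's share in each pair and direction. With 15 ends, however, 0 or 1 calls say little against a share such as 7.99%. The leading ends also held far more tags than the required 20, and no share over clusters of like tag count was computed. The calls of the ATP6 and 950 ends rested on scaling by library total: under the 3 other scalings they were 2.81-fold to 3.23-fold and 2.96-fold to 3.45-fold lower. The 1713 end, in contrast, passed 4-fold for the adult against 72 hpf under those scalings (4.76-fold to 5.47-fold). The 8119 end was called higher in the adult against 24 hpf under both median-ratio scalings (4.63-fold and 4.13-fold) but not when scaled to the plus-strand tags (3.97-fold). The direction of a ratio flipped under another scaling for 1 end in each pair that includes 72 hpf, the ND1 and COX2 ends named above. For the adult against 24 hpf no end flipped, with 7 ends above 1 and 8 below under each of the 4 scalings.

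**Figure D2:**
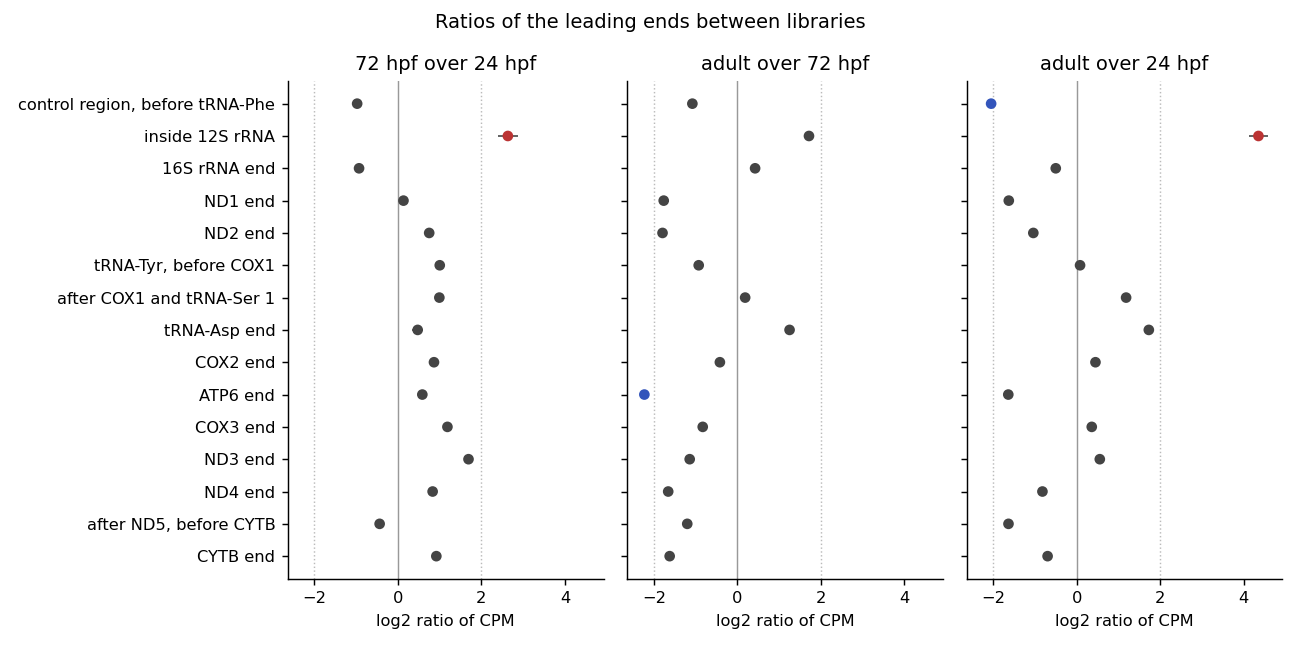
Log2 ratio of CPM (x axis) of the 15 leading ends between each pair of libraries, with exact 95% intervals of counting error that are mostly narrower than the points. Dotted lines mark 4-fold; red and blue points were called higher and lower, namely the end inside the 12S rRNA gene (6.20-fold, 72 hpf over 24 hpf, and 20.4-fold, adult over 24 hpf), the control region end (ratio 0.241, adult over 24 hpf) and the ATP6 end (0.214, adult over 72 hpf).

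Most leading ends were sharp. Over the pooled libraries the leading position held a median of 98.6% of the cluster's tags among the 14 ends at a gene boundary, with 13 of them at 90% or more. Among the other 126 clusters with at least 100 tags, the median was 35.2% and 3 reached 90%. One of the 3 was at 12822 (97.2%) and another at 4923 (95.2%), both between tRNA genes. Of the 126 clusters, 10 lay within 10 nt of a boundary, and only these 2 of them reached 90%. The median of the 10 was 56.1% and the lowest value 25.5%. Whether sharpness goes with the boundary or with the number of tags was not tested. At the COX3 end the leading position held 98.8% at 24 hpf, 98.7% at 72 hpf and 98.9% in adults. The cluster at 1713, away from a boundary, held 56.3% at its leading position. Among the boundary ends that of the 16S rRNA was the exception, with tags at 3731 and also at 3726. The upstream position held 14.7% of the cluster at 24 hpf (CI 14.2% to 15.1%), 15.2% at 72 hpf (14.6% to 15.8%) and 28.0% in adults (27.3% to 28.7%). The ND1 end held 84.9% at its leading position at 24 hpf (83.4% to 86.4%) against 94.1% and 93.9% in the other libraries. A broad cluster in the control region, led by 177, was at the other extreme: its leading position held 3.38%, 15.1% and 22.4%, and at 24 hpf and 72 hpf position 174 held more tags than it.

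**Figure D3:**
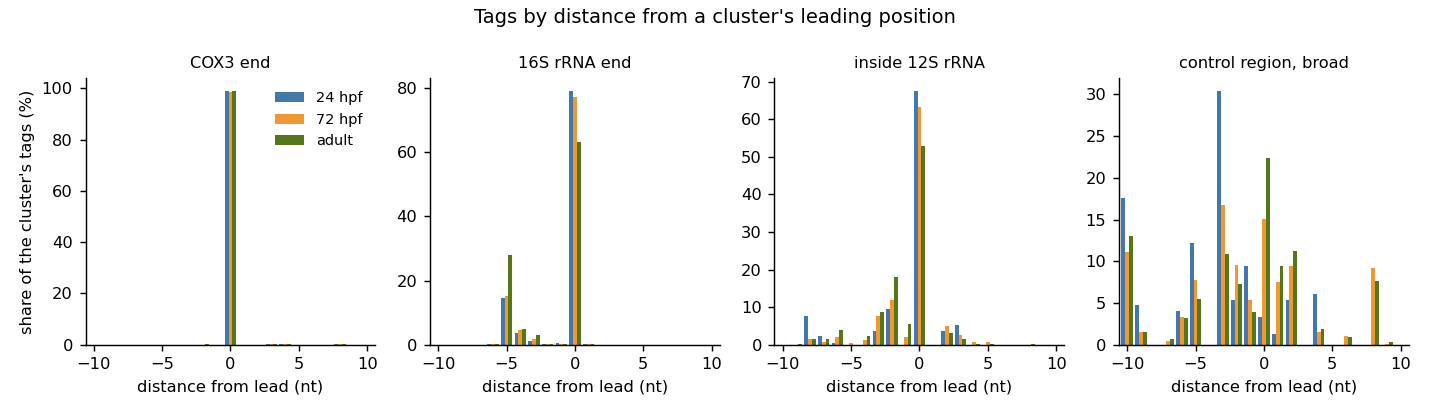
Share of a cluster's tags (y axis, percent) by distance in nt from its leading position (x axis, 0 is the leading position), for 4 clusters and each library. The COX3 end is a single peak, the 16S rRNA end has a further peak 5 nt upstream that is taller in adults (28.0%), and the control region cluster spreads over the whole window.

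Between the leading ends lay the other 803 clusters, with 9.56%, 6.19% and 7.97% of the plus-strand tags at 24 hpf, 72 hpf and in adults. The median member held 25 tags over the libraries, and 339 of all 818 held 4 to 19. At the limit, 40 clusters held 4 tags, and 38 with 3 tags were left out. At least 4 tags in each library were found for 349 members, and 85, 65 and 64 reached that in a single library. Of all 818 members, leading ends included, 45 lay within 10 nt of a gene boundary (5.50%, beside 5.28% of positions), and 14 of these were leading ends. A leading end absorbs every position within 10 nt, so this does not say how minor ends lie about the boundaries.

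The share of tags at such internal ends was compared for the stretches that close at the end of a protein gene, from the leading end before it. It also moves with the level of the closing end. At 72 hpf this share was lower than at 24 hpf in 9 of 10 stretches, with intervals that did not overlap. In 3 of the 9 the summed CPM of the internal ends was nevertheless higher at 72 hpf. It went from 98.3 to 109 for COX2, from 67.0 to 77.4 for ATP8 and ATP6, and from 81.4 to 83.4 for COX3. The ratios were 1.11 (CI 1.01 to 1.22), 1.16 (1.03 to 1.30) and 1.02 (0.921 to 1.14), so that of COX3 did not exclude equality. All 3 were below the ratio of the plus-strand totals, 1.39, so scaled to those tags each sum was lower at 72 hpf. In the others of the 9 the sum was lower in CPM as well, though for ND3 only from 130 to 127 (ratio 0.977, 0.897 to 1.06). In the ND1 stretch the share was 54.8% at 24 hpf (CI 53.4% to 56.2%), 22.4% at 72 hpf (21.1% to 23.7%) and 33.6% in adults (30.8% to 36.5%). In the COX1 stretch it was 21.6%, 9.86% and 9.20%, and in the CYTB stretch 14.7%, 6.57% and 14.6%. The COX3 stretch had the lowest shares, 1.59%, 0.724% and 1.38%. The ND5 stretch was the exception at 72 hpf, with 48.9%, 55.3% and 55.2%. It contains the tRNA end at 12822. Its internal ends summed to 373, 357 and 154 CPM with that end and to 182, 140 and 110 without it. The closing end held 390, 288 and 125 CPM. The share without the end at 12822 was not computed. The ND5 shares compared here, also those of 72 hpf and the adult, therefore hold only with that tRNA end counted as internal. The ND2 stretch likewise contains the tRNA end at 4923. Its internal ends summed to 223, 183 and 96.9 CPM with that end and to 130, 104 and 72.3 without it. From 72 hpf to the adult the share was higher in 8 stretches, lower in that of COX1 and overlapping in that of ND5. Adult over 24 hpf gave 3 lower, 3 higher and 4 overlapping, among the higher ones ATP8 and ATP6 (6.31% to 13.9%). The adult library held more single-tag intervals, and their part in these shares was not tested.

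**Figure D4:**
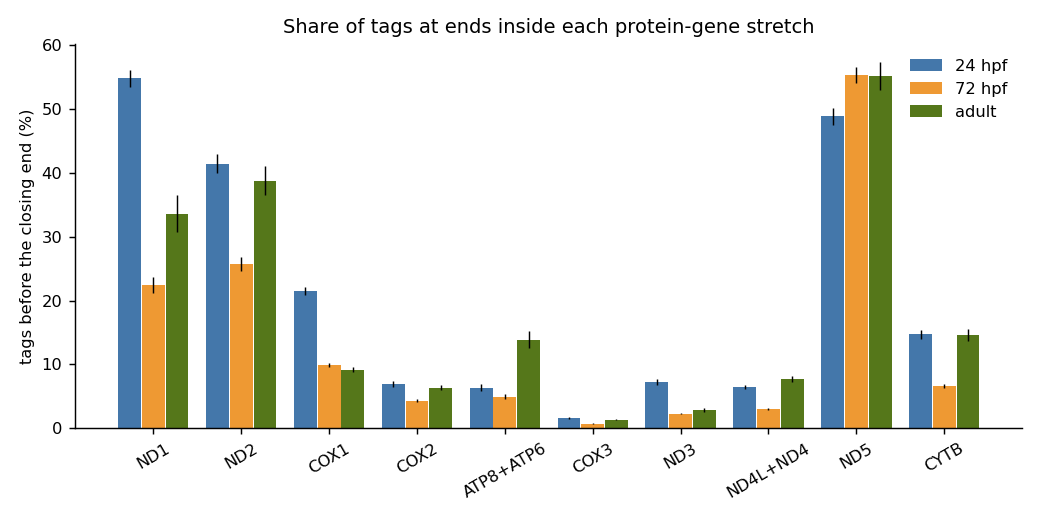
Share of tags (y axis, percent) at ends before the closing end of each protein-gene stretch, by library, with exact 95% intervals of counting error. The 72 hpf bar is below the 24 hpf bar in 9 of the 10 stretches, and the ND1 bar at 24 hpf reaches 54.8%.

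Among the stretches, that of ND1 had the lowest ratio of the adult to 24 hpf in its summed internal ends, 0.135 (CI 0.121 to 0.151). Its 53 clusters summed to 363 CPM in the 24 hpf library, 94.97 at 72 hpf and 49.1 in adults, and to 243, 90.8 and 48.7 without the largest cluster. Of 26 tested clusters 11 were called lower at 72 hpf than at 24 hpf and 0 higher, beside 7.99% lower and 20.1% higher over all tested clusters. For the adult against 24 hpf, 16 of 25 were called lower and 1 higher, beside 20.2% and 23.5%. The stretch was singled out by the sum of these same tags, so the calls restate its low ratio and are not further support. The largest cluster, at 4305 inside ND1, held 893 tags in the 24 hpf library, 41 at 72 hpf and 3 in adults. The ratio was 0.0347 for 72 hpf over 24 hpf (CI 0.0247 to 0.0475) and 0.00334 for the adult over 24 hpf (0.000687 to 0.00979). Its 24 hpf tags fell in 22 intervals, of which the largest held 204. Further ND1 clusters lay at 4742 (122, 18 and 4 tags) and 4767 (238, 38 and 11). Together with 4305 they were the 3 lower calls of largest fold in the adult against 24 hpf, among those with at least 100 tags. They were named for that fold, so their fall between those libraries follows from the rule and is not further support.

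The internal ends named in other genes were picked by the largest called folds in each direction, so both directions appear through the naming rule. In COX1 the cluster at 7737 held 300, 36 and 17 tags, a ratio of 0.0908 for 72 hpf over 24 hpf (CI 0.0624 to 0.129). That at 7361, in contrast, held 6, 26 and 86. It was named for adult over 72 hpf, at 4.35-fold (2.77 to 7.02). Against 24 hpf the adult was 14.2-fold higher (6.28 to 39.9), but the 6 tags at 24 hpf lay at 2 positions. In mt-rnr2, the cluster at 3395 held 220, 20 and 15 tags, a ratio of 0.0688 for 72 hpf over 24 hpf (0.0412 to 0.109), and that at 3594 held 41, 31 and 105. Inside tRNA-Ser 2, 12791 held 51, 30 and 162 tags, 7.09-fold higher in adults than at 72 hpf (4.78 to 10.8). At the start of ND2, just past tRNA-Met, 4994 held 17, 83 and 186 tags, 10.9-fold higher in adults than at 24 hpf (6.61 to 19.1), with the 17 tags in 2 intervals.

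The control region before 950 held 47 clusters that summed to 238, 476 and 223 CPM, and to 218, 263 and 111 without the largest. This largest cluster, the broad one led by 177, had 148, 2086 and 841 tags in 33, 83 and 90 intervals. Its ratio of 72 hpf to 24 hpf was 10.7 (CI 9.02 to 12.7). The neighbouring cluster at 196 held 12, 136 and 131 tags, with its 12 tags in 2 intervals. Farther along, the clusters at 648 and 697 held 121, 250 and 22 tags and 105, 207 and 12 tags. Both were called lower in adults than in either embryo library on the CPM scale. Their calls against 72 hpf were kept when scaled to the plus-strand tags or by median ratio. For 648 the ratio of adult to 24 hpf was 0.181 (CI 0.109 to 0.286), and the median-ratio shift of 0.49 in log2 leaves it short of 4-fold. The cluster at 114 held 148, 391 and 46 and was called lower in adults than at 72 hpf, at a ratio of 0.155 (0.111 to 0.210), but not when scaled to the plus-strand tags or by median ratio. The control region thus held ends of either direction at 72 hpf against 24 hpf, with the end at 950 lower and the cluster led by 177 higher.

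With fewer than 20 tags over the pair, 438, 457 and 461 members were not tested for 72 hpf over 24 hpf, adult over 72 hpf and adult over 24 hpf. Over the tested members, calls on the CPM scale were less frequent than over the genome in 5 of 6 pairs and directions; the share over the genome was not computed for other scalings. At 72 hpf against 24 hpf, 32 of 380 tested members were called higher (8.42%) and 38 of 380 lower, beside 20.1% and 7.99% of all tested clusters. Scaled to the plus-strand chrM tags the counts were 18 and 59, and by median ratio 25 and 47. In the adult against 72 hpf, 23 of 361 were called higher (6.37%) and 27 lower (7.48%), beside 19.1% and 27.9%. These counts depended on the scaling, with 49 higher and 4 lower when scaled to the plus-strand chrM tags and 48 and 5 by median ratio. In the adult against 24 hpf, 41 of 357 were higher (11.5%) and 70 lower (19.6%), beside 23.5% and 20.2%, and the same scalings gave 52 and 56, and 60 and 51. The exception was the share of lower calls at 72 hpf against 24 hpf, and the lower share of the adult against 24 hpf was near the background. In the same order of pairs, the median log2 ratio of the tested members was -0.11, -0.34 and -0.59, against 0.38, -0.66 and -0.05 over all tested clusters, with clusters without tags set to a floor of 3 tags. Median-ratio scaling shifts every log2 ratio by -0.24, 0.73 and 0.49. Each distinct interval was also counted once, scaled to the distinct intervals of the library. At most 1 of the same tested members was then called higher in any pair. In the adult against 24 hpf 20 were called lower, and 0 in the other pairs. The adult library had more distinct intervals, 517701 against 235580 at 24 hpf, so this scaling lowers every adult over 24 hpf ratio relative to unscaled interval counts. Of the clusters named for their fold, those at 4305, 4742 and 4767 remained called lower in the adult against 24 hpf on that count, and no other named call did.

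**Figure D5:**
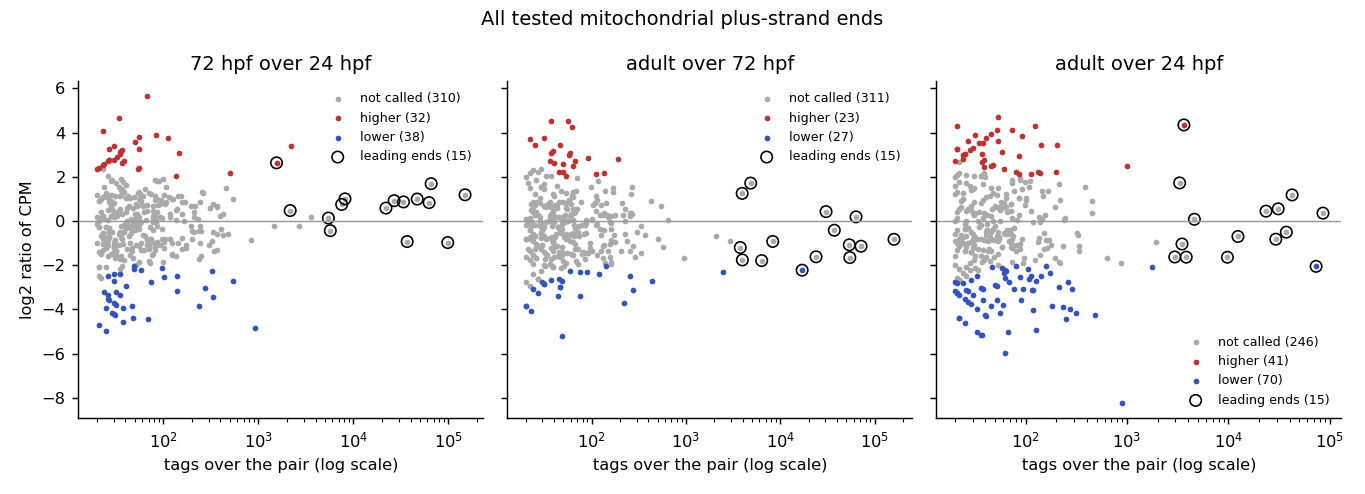
Log2 ratio of CPM (y axis) against the tags over the pair (x axis, log scale) for every tested member, with called members in red (higher) and blue (lower) and the leading ends circled. Most calls are clusters with few tags, and 6, 3 and 9 higher and 9, 8 and 23 lower calls had at least 100 tags over the pair.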

How the data were processed

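The deposited files list, per the file headers, danRer7 intervals with a strand and a whole number, read here as the tag count of the interval since no label says what it is. The deposited counts are whole numbers that sum to different totals per library. Per the submitters' processing notes, Bowtie and Zv9 (danRer7) were used; the Bowtie version, the trimming and the treatment of multiply matching tags were not found in the sources used here. The display offset of 1 in the file headers was added to positions. CPM are tags per 1000000 of a library. Ratios carry exact conditional Clopper-Pearson 95% intervals and shares exact binomial ones (scipy 1.17.1, Python 3.11.15). These cover counting error only; tags of 1 molecule copied by PCR are not independent. Calls were computed across all clusters of the genome with the same rule. A library without tags was set to 3 tags, or 0.404, 0.306 and 0.402 CPM. Steps were tested on simulated data with counting error only and with ends that lay well apart. That test does not cover tags copied by PCR or adjoining clusters such as those of the control region. Clusters named in full are those with at least 1% of the plus-strand tags in a library, and for each pair the 3 largest called folds in each direction with at least 100 tags; the ends at 1971, 2004, 4923 and 12822 were added after their values were seen. The members and gene lists were chosen with earlier results of these data known, and the grouping into stretches was chosen after the data were seen. No sequence was used.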

Additional observations from a re-analysis of the deposited data

How the results depend on the processing

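No paired analysis was possible because each stage has 1 library. The ratio of plus-strand totals for 72 hpf over 24 hpf, adult over 72 hpf and adult over 24 hpf was 1.39, 0.600 and 0.832. It became 1.40, 0.590 and 0.829 when scaled to the tags outside chrM, and 1.17, 0.993 and 1.17 with median-ratio scaling. Without the COX3 end and the control region end at 950 it was 1.54, 0.637 and 0.979. With each distinct interval counted once, scaled to the library's distinct intervals, it was 0.879, 1.00 and 0.881. Median-ratio scaling over clusters with at least 4 tags in each library gave 1.20, 0.870 and 1.04. This last scaling and the leaving out of both ends were added after seeing the data.

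Calls in the order higher and lower for 72 hpf over 24 hpf, adult over 72 hpf and adult over 24 hpf were 32 and 38, 23 and 27, 41 and 70. Scaling by the chrM plus-strand tags gave 18 and 59, 49 and 4, 52 and 56. Median-ratio scaling gave 25 and 47, 48 and 5, 60 and 51, and over clusters with at least 4 tags in each library 27 and 47, 38 and 6, 54 and 54. A window of 24 nt gave 12 and 22, 14 and 13, 25 and 45, from 424 clusters. Single linkage gave 3 and 8, 8 and 9, 12 and 21, from 213. A minimum of 100 tags gave 6 and 9, 3 and 8, 9 and 23. A 2-fold rule gave 78 and 100, 57 and 109, 86 and 132, and an 8-fold rule 10 and 19, 6 and 4, 16 and 29. Each distinct interval counted once gave 0 and 0, 1 and 0, 1 and 12, and on the same tested clusters, added after seeing the data, 0 and 0, 1 and 0, 1 and 20. Of the named calls, those of 4305, 4742 and 4767 in the adult against 24 hpf remained under that count, which was scaled to the library's distinct intervals. Intervals saturate, since an end admits few distinct tag lengths.

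The share of the 5 leading clusters was 64.4%, 70.8% and 66.3% at 24 hpf, 72 hpf and in the adult with a 24 nt window, 65.1%, 71.4% and 67.2% with single linkage, and 6.02%, 7.03% and 4.49% of distinct intervals. Depth limits clusters with few tags, and no setting replaces replicate libraries. The cause of each change was not tested.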
